A study of Bos taurus with 2 samples.

Results

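The genes described here encode the subunits of the proteasome and of its interferon-inducible form, the immunoproteasome. They are 36 genes, chosen by symbol or by the RefSeq transcript that a probe names, out of 10339 genes with a value on the arrays. All 36 had at least 1 probe above background on both arrays. Their 78 probes are among 43653 distinct probes read. RNA came from whole blood of Holstein cattle (Bos taurus) and was read on Agilent bovine oligonucleotide microarrays. One specimen had low feed efficiency and the other high feed efficiency, each on 1 array. A low efficiency animal eats more than its size and production call for, which is a high residual feed intake, and the study asks how blood gene expression differs with this trait. The labels name no age, sex or diet, and leave unsaid whether a specimen is 1 animal or a pool. A single array per group allows neither a replicate check nor a test, and precision is limited by this number of arrays.

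The proteasome is the barrel-shaped protease that degrades proteins tagged with ubiquitin. Its core particle has outer rings of alpha subunits, which control entry, and inner rings of beta subunits, of which PSMB5, PSMB6 and PSMB7 carry the active sites. The regulatory particle caps the barrel, and its ATPases (PSMC genes) unfold the substrates that its other subunits (PSMD genes) bind and strip of ubiquitin. Interferon-gamma induces PSMB8, PSMB9 and PSMB10, which replace PSMB5, PSMB6 and PSMB7, and the activator PA28 (PSME1 and PSME2). The resulting immunoproteasome is abundant in blood leukocytes and produces many of the peptides shown on MHC class I.

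Each value is a log2 difference of the intensities, low minus high feed efficiency, after each array was scaled to its 75th percentile. It is given relative to the median of all genes, so 0 stands for the gene in the middle of the array, and it is called the relative difference below. Intensities are those of the scanner after background subtraction. The low efficiency array was brighter, with a 75th percentile of 98 against 81 on the high efficiency array, so equal intensities give a negative relative difference. Scaling on spike-in controls instead put the median of all genes at 0.32, and 34 of the 36 members above 0; a negative relative difference therefore gives a position below the middle gene and does not say that transcript was lost. Probes printed on several spots give a spot SD of the difference, 0.10 over 12 bright probes and 0.23 over 24 dim ones.

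The proteasome genes as a whole stayed close to the middle of the array. Their median relative difference was -0.07, with 20 below and 16 above 0, where all genes split into 5169 below and 5169 above by the centring. No member was 2-fold apart, where 0.484% of all genes were at least 2-fold lower and 0.416% at least 2-fold higher. At 1.5-fold, 1 member was lower, PSMB6, and none was higher, against 2.62% and 3.29% of all genes. The share of members past either fold was near these background shares. The middle 50% of members spanned 0.26, from -0.17 to 0.09, and that of all genes spanned 0.37. By the brightness classes described below, this span was 0.31 in the brightest class, with 26 members, and 0.32 in the next, with 8. In the brightest class 1.93% of genes were at least 1.5-fold lower and 0.503% higher. The dimmest class held no member and spanned 0.4996, with 5.25% lower and 7.26% higher. The all-gene span and shares thus include dim genes of a class without members.

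The members were bright genes. When all genes were cut into 4 classes of equal size by brightness, 26 of the 36 members belonged to the brightest class, 8 to the next, 2 to the one below and none to the dimmest. In the brightest class all genes had a median of -0.07 and 62.6% lay below 0, while the 26 members had a median of -0.10 and 18 of them lay below 0. The 8 members of the next class had a median of 0.06, where all genes of that class had 0.01. Loess normalization, which removes a trend with brightness, moved the median of all members to -0.0075. The median was above 0 with normexp background correction (0.014, 14 below and 22 above), quantile normalization (0.011, 17 below and 19 above) and the authors' table (0.02, 16 below and 20 above). The part of brightness in the single values was not tested.

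**Figure D1:**
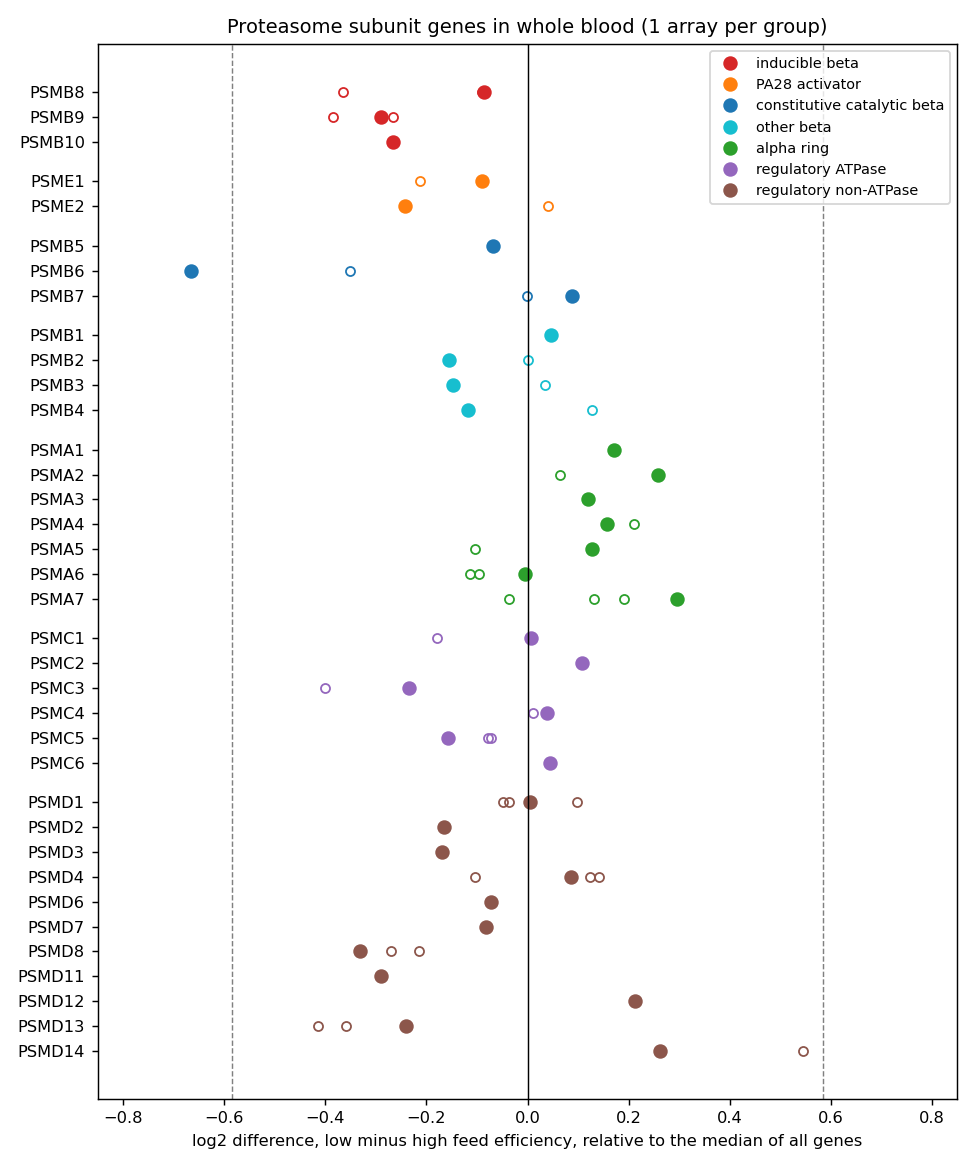
Relative log2 difference (low minus high feed efficiency) of each proteasome gene on the horizontal axis, grouped by role. Filled points are the brightest probe of a gene and open points its other probes above background; dashed lines mark 1.5-fold. PSMB6 is the single gene beyond the left dashed line, and the inducible subunits and PA28 lie left of 0 by their brightest probes.

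The inducible active-site subunits lay below the middle of the array. PSMB9, also called LMP2, read 6704 at low against 6955 at high feed efficiency, a relative difference of -0.29. Its other probes for the RefSeq transcript read 6443 against 6584 and 982 against 1089, with -0.27 and -0.39. All probes of PSMB9 above background thus gave the same direction. The fourth, which names no RefSeq transcript, read 9 against 3, below background on both arrays.

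PSMB8, also called LMP7, read 4699 at low against 4236 at high feed efficiency, a relative difference of -0.09. Its other probes read 2346 against 2120 (-0.09) and 589 against 644 (-0.37). The brightest probe of PSMB8 was within the spot SD of 0, and its value turned positive with normexp background correction (0.01), quantile normalization (0.02) and the authors' table (0.03). PSMB10, also called MECL-1, had a single probe that read 465 against 475, a relative difference of -0.27. It stayed between -0.27 and -0.16 under every alternative that was centred on all genes.

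Both PA28 activator subunits lay below 0 by their brightest probes. PSME1 read 3432 at low against 3104 at high feed efficiency (-0.09), and its other probe 3023 against 2976 (-0.21). PSME2 read 2829 against 2841 (-0.24), with the low efficiency spot not flagged good, while its other probe read 2874 against 2374 (0.04), with the high efficiency spot not flagged good. The PSME2 probes therefore fell on both sides of 0, and with their mean PSME2 had -0.10. PSME1 took either sign across alternatives, with 0.03 in the authors' table.

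Together the 5 inducible genes had a median of -0.24 and a mean of -0.19, from -0.29 to -0.09, and all 5 were below 0. None was 1.5-fold apart. In the centred alternatives their median ran from -0.25 to -0.13. The number below 0 was mostly 5 of 5, and 4 of 4 where 1 gene had no value. It was 3 of 5 with normexp, quantile normalization and the authors' table, where PSMB8 and PSME1 turned positive. With loess these 2 genes were barely below 0, PSMB8 at -0.0037 and PSME1 at -0.011.

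The constitutive active-site subunits had no common direction. PSMB6, the subunit with caspase-like activity, read 642 at low against 865 at high feed efficiency, a relative difference of -0.67 (1.59-fold lower), at percentile 1.70 of all genes. It was the lowest of the 36, and 0.34 separated it from the next, PSMD8. No other gap between neighbours in the order of the 36 exceeded the spot SD of bright probes.

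The PSMB6 value rests on 1 spot per array. The low efficiency spot was not flagged good, and its pixel mean of 515 differed from its pixel median of 642, while the high efficiency spot had 875 and 865. With pixel means PSMB6 had -0.996, with normexp -0.54 and in the authors' table -0.54. A second PSMB6 probe, which names no RefSeq transcript, read 12 against 13, just above the background limit of 10.9, with -0.35. Its spots were not flagged good on either array. Where only spots flagged good were used, PSMB6 had no value.

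PSMB5, with chymotrypsin-like activity, read 427 at low against 380 at high feed efficiency, a relative difference of -0.07. PSMB7, with trypsin-like activity, read 2119 against 1694, with 0.09, and its other probe read 326 against 277, with -0.00077. Both were within the spot SD of 0. The 3 constitutive genes had a median of -0.07, and their mean was -0.22.

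By the reported setting all 5 inducible genes lay below PSMB5 and PSMB7 and above PSMB6. In 5 of 15 gene pairs the inducible gene was thus higher, each of them a pair with PSMB6. The order against PSMB5 changed with the setting for PSMB8 and PSME1. They had 0.02 and 0.03 with quantile normalization, where PSMB5 had -0.06, and 0.03 and 0.03 in the authors' table, where PSMB5 had -0.05. With loess they had -0.0037 and -0.011, also above PSMB5 at -0.06. The median of the 5 inducible genes minus that of the 3 constitutive genes was -0.17, between -0.19 and -0.08 under the alternatives, while the means were -0.19 for the inducible and -0.22 for the constitutive genes. Without PSMB6 the constitutive mean was 0.01, above that of the inducible genes as with the medians. Each inducible subunit can be set against the subunit that it replaces. PSMB10 was lower than PSMB7 by 0.35 on the log2 scale, and both probe combinations gave this direction. PSMB9 was higher than PSMB6 by 0.38, and 5 of 6 probe combinations gave this direction, from -0.03 to 0.40 over all 6. Every combination uses either the PSMB6 spot not flagged good or the dim second PSMB6 probe, whose spots were not flagged good either. PSMB8 and PSMB5 differed by -0.02, less than the spot SD, and by -0.11 to 0.08 over the settings. The pair of PSMB9 and PSMB6 carries the limits of the PSMB6 spots, and ran from 0.19 with the mean over probes to 0.69 with pixel means.

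**Figure D2:**
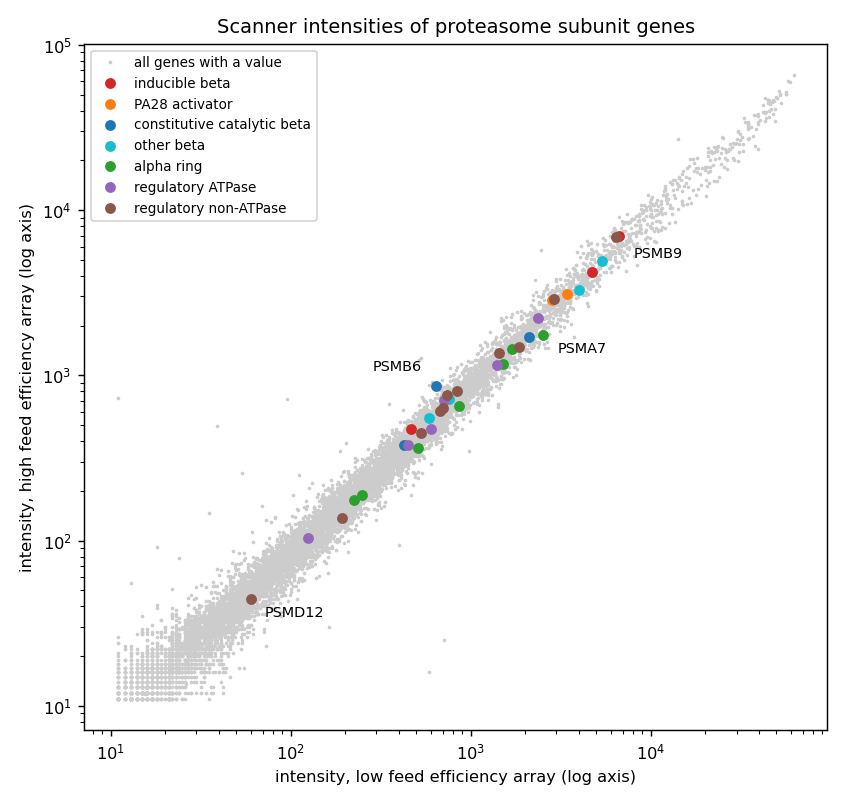
Scanner intensity of each gene in low feed efficiency (horizontal, log axis) and high feed efficiency (vertical, log axis), for all genes with a value in grey and for the proteasome genes in colour by role. The proteasome genes run along the main band from PSMD12 (60 against 44) to PSMB9 (6704 against 6955), and PSMB6 sits at its upper edge.

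The alpha ring ran the other way from the inducible subunits. Of the 7 alpha genes 6 lay above 0, with a median of 0.16 and a range from -0.0045 to 0.30, and none was 1.5-fold apart. PSMA7 had the highest value of all 36 members, at 2527 at low against 1748 at high feed efficiency (0.30), and its other detected probes ran from -0.04 to 0.19. PSMA2 read 510 against 362 (0.26) and at its other probe 128 against 104 (0.06). PSMA1, at 867 against 654, had 0.17.

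The probes of PSMA4 lay close together, at 248 against 189 (0.16) and 248 against 182 (0.21). PSMA3 read 225 against 176 (0.12). PSMA5 read 1515 against 1178 (0.13), and its other probe had -0.10. PSMA6 was the exception, at 1688 against 1438 (-0.0045), and its 3 probes lay between -0.11 and -0.0045. The ring's median stayed between 0.14 and 0.21 in the 12 centred alternatives. PSMA6 took either sign among them, and each of the other 6 genes stayed above 0.

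The other beta subunits, which hold no active site, were near the middle. PSMB1 read 3988 at low against 3281 at high feed efficiency (0.05), PSMB4 read 5361 against 4943 (-0.12), PSMB2 read 762 against 721 (-0.16) and PSMB3 read 588 against 553 (-0.15). The second probes of PSMB2, PSMB3 and PSMB4 had 0.00, 0.03 and 0.13, none below 0. For these 3 genes the sign thus depends on the probe, and with the mean over probes the 4 genes had a median of -0.03 in place of -0.13.

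**Figure D3:**
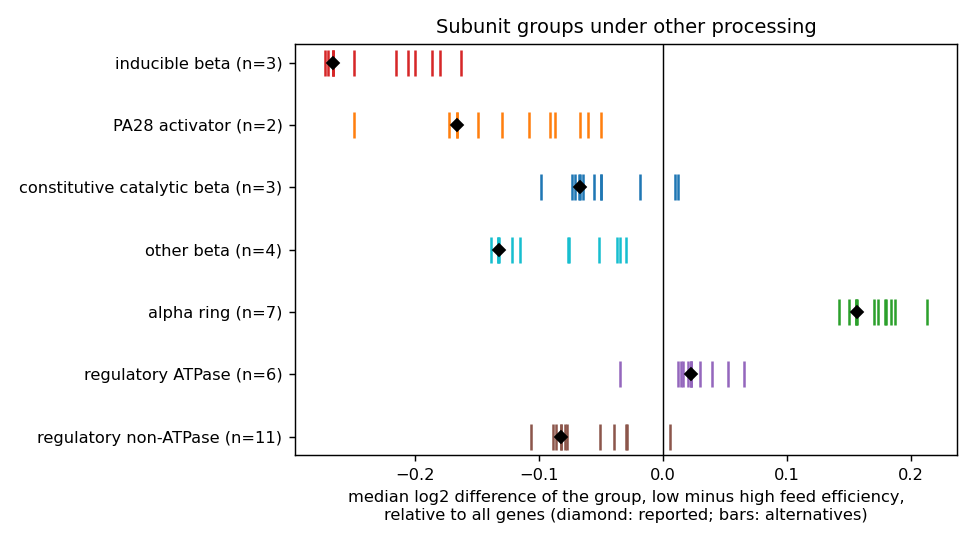
Median relative log2 difference (low minus high feed efficiency) of each subunit group on the horizontal axis; the diamond is the reported median and the bars the centred alternatives. The alpha ring stays between 0.14 and 0.21 and the inducible beta subunits between -0.27 and -0.16.

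The ATPase ring of the regulatory particle was centred on the middle gene, with a median of 0.02 over 6 genes, 4 above and 2 below 0. PSMC3 read 709 at low against 708 at high feed efficiency (-0.23), and its other probe had -0.40. PSMC5 read 2353 against 2228 (-0.16), with 3 probes between -0.16 and -0.07. These 2 genes had every probe below 0. PSMC2, with 600 against 473, had 0.11, and PSMC1, PSMC4 and PSMC6 had 0.01, 0.04 and 0.04, less than the spot SD, though the other probe of PSMC1 had -0.18.

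Among the non-ATPase subunits 7 of 11 were below 0, with a median of -0.08. PSMD8, a lid subunit, read 6408 at low against 6843 at high feed efficiency (-0.33), and its other probes read 5486 against 5618 (-0.27) and 213 against 210 (-0.22). PSMD13, also of the lid, read 2888 against 2896 (-0.24), and its other probes had -0.36 and -0.41. Both genes were below 0 with all 3 probes and in all 12 centred alternatives. PSMD11, whose product braces the lid against the core, read 735 against 763 (-0.29) on a single probe with a low efficiency spot not flagged good.

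PSMD14, the enzyme that removes ubiquitin chains from substrates, was the highest of this group at 192 at low against 136 at high feed efficiency (0.26). Its other probe read 115 against 67, a relative difference of 0.54, the highest of any member probe above background on both arrays. PSMD14 partners PSMD7, which read 675 against 607 (-0.08). PSMD12, a lid subunit and the dimmest member, read 60 against 44 (0.21, and 0.08 with normexp). Its value was less than the spot SD of dim probes, 0.23.

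PSMD1 and PSMD2 form the scaffold of the base. PSMD1 read 529 at low against 448 at high feed efficiency, with 4 probes between -0.05 and 0.10, and PSMD2 read 1433 against 1364 (-0.16). PSMD4, a ubiquitin receptor, read 1860 against 1489 (0.09), with 3 of its 4 probes above 0. PSMD3 read 840 against 802 (-0.17) and PSMD6 read 707 against 631 (-0.07). The lid genes ran from PSMD8 (-0.33) to PSMD14 (0.26). Of these PSMD3, PSMD6, PSMD7, PSMD8, PSMD11 and PSMD13 lay below 0, and PSMD12 and PSMD14 above.

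Probes of a gene agreed about as often as over the whole array. Of the 23 members with several probes above background, 13 had every probe on the same side of 0, which is 56.5%, against 58.8% of 4995 genes. The range over probes of a member had a median of 0.17, against 0.23 for all genes. In all, 13 members were below 0 and 14 above 0 in every centred alternative, and 9 took either sign.

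Of the 6 member probes that name no RefSeq transcript, 1 was above background on both arrays, the PSMB6 probe given above. Of the 72 that name a RefSeq transcript, 70 were. No member spot was saturated.

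The genes that assemble the proteasome were mostly above the middle. Of 9 assembly and accessory genes, all measured, 7 lay above 0, with a median of 0.10 and none 1.5-fold apart. PSMG3, an assembly chaperone, read 244 at low against 147 at high feed efficiency (0.50), but its other probe had 0.01. PSMG1, a chaperone of the alpha ring, had 0.20 (528 against 390), with -0.01 at its other probe, and PSMG4, the partner of PSMG3, had -0.20 (3952 against 3842) with both probes below 0.

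Other regulators and subunits had a median of 0.01 over 9 of 11 genes, with 5 above and 4 below 0, and without a probe for ECPAS and PSMA8. PSMB11, a subunit known from the thymus, read 30 at low against 38 at high feed efficiency (-0.58), and -0.27 with normexp. PSMF1, which encodes the regulator PI31, had -0.34 (515 against 555), with -0.11 at its other detected probe. USP14, a deubiquitinase of the proteasome, had 0.26 at 41 against 29 (0.05 with normexp). None was 1.5-fold apart.

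Genes of ubiquitin, its activation and its shuttle factors had a median of -0.08 over 13 of 14 genes, 10 of them below 0, and NPLOC4 was not above background. UBQLN4, a shuttle factor, read 17 at low against 27 at high feed efficiency (-0.90), the one gene of these lists at least 1.5-fold apart, and -0.33 with normexp. UBA6, a ubiquitin-activating enzyme, read 27 against 16 (0.52), and 0.07 with normexp. Both sit near background. VCP, the ATPase that extracts ubiquitinated proteins, had -0.22 at 2316 against 2291, and its 4 probes ran from -0.22 to 0.29.

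Transcription factors that control proteasome genes had a median of 0.003 over 5 of 7 genes. NFE2L2 had 0.37 (164 at low against 108 at high feed efficiency), with 4 probes between -0.14 and 0.37. IRF1, which drives inducible subunits, had 0.11 (4703 against 3712), with both probes above 0. NFE2L1, which raises proteasome genes when the proteasome is inhibited, had -0.09 (640 against 580) and probes from -0.14 to 0.50. DDI2 had no probe above background on both arrays and NLRC5 had no probe.

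**Figure D4:**
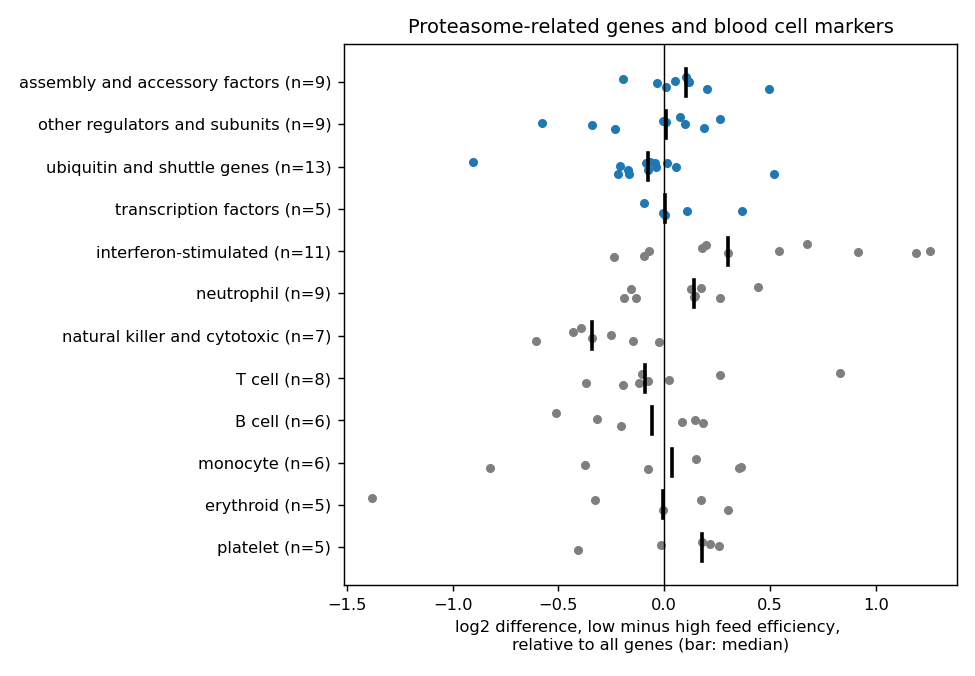
Relative log2 difference (low minus high feed efficiency) of each measured gene on the horizontal axis, by list, with a bar at the list median. Lists of proteasome-related genes are blue and blood cell and interferon lists grey; the interferon-stimulated genes have a median of 0.30 and the natural killer and cytotoxic markers -0.34.

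Interferon-stimulated genes and some blood cell markers also differed between the arrays. Of 11 measured interferon-stimulated genes 8 lay above 0, with a median of 0.30, and 4 were at least 1.5-fold higher, against 3.29% of all genes. The 5 inducible proteasome genes lay below 0, or 3 of the 5 under the alternatives named above. Natural killer and cytotoxic markers had a median of -0.34, with 7 of 7 measured below 0, and their summed intensity, in units of the 75th percentile, was 202.5 at low against 263 at high feed efficiency. Neutrophil markers had a median of 0.14, with 6 of 9 above 0 and a sum of 908 against 810. T cell markers had -0.09 (5 of 8 below 0, sum 182 against 222), B cell markers -0.06 (3 of 6 below 0, sum 62.9 against 68.0) and monocyte markers 0.04 (3 of 6 below 0, sum 291 against 332). Erythroid markers had -0.01 (3 of 5 below 0, sum 342 against 309) and platelet markers 0.18 (3 of 5 above 0, sum 276 against 259). The sums mostly follow their brightest genes and are not totals of a cell type. Among these genes are HBA (intensity 26648 at low against 20058 at high feed efficiency), S100A12 (48851 against 34561) and CD4 (9466 against 10394). ALAS2, the erythroid enzyme of heme synthesis, read 112 against 248 (-1.38), the one listed marker at least 2-fold lower. Over the centred alternatives the monocyte median ran from -0.21 to 0.11, with the other sign in 5 of 12, the erythroid median from -0.33 to 0.01, the platelet median from 0.0022 to 0.18 and the B cell median from -0.14 to 0.01. KLRD1, SLC4A1 and EPB42 had no probe above background on both arrays, and FPR1, GP9 and IFI44 had no probe. In whole blood fewer cells of a type and less RNA per cell cannot be told apart, and the part of cell makeup in the proteasome values was not tested.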

How the data were processed

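Whole blood RNA was labelled with Cy3 and hybridised to 1 array per group, per the labels' protocols. The deposited scanner files were written by GenePix Pro 6.1.0.4, per the file headers, and both arrays share a slide and a scan; Agilent Feature Extraction is the tool given in the submitters' processing notes. The intensity used is the deposited pixel median minus a background from negative controls, per the file headers. Per the file headers, saturation is deposited as a percent of spot pixels, and spot flags as a score (100 good, -50 not found). The authors' deposited table holds log2 values of unstated normalization, centring and background correction; its rows followed the scanner values only after a shift by 1 row (rank correlation 0.077 before and 1.00 after, low feed efficiency) and served, moved, as an alternative.

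Of 43803 probe spots, those flagged not found although bright were left out (408 in low and 283 in high feed efficiency). Spots of a probe were averaged, intensities divided by the 75th percentile over probes, and the difference on the log2 scale, low minus high, centred on the median of all genes. Background was the median of 153 negative controls plus 3 robust SDs (10.9 on both arrays). A gene was represented by the brightest of its probes that passed on both arrays. Probes were named through RefSeq accessions of ARS-UCD2.0 (26743 probes), current symbols (5971) or synonyms (141); for 1662 the name on the array was retained, and 9136 stayed unnamed.

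No test was possible with 1 array per group, and calls are folds of 1.5 and 2. All members were described; in each related list the 3 genes farthest from 0 were named. Members and lists were chosen with earlier results of these data known. Normexp, quantile normalization and the loess fit were run with limma 3.58.1 in R 4.3.3. The other alternatives and the rest were run with Python 3.11.15 and pandas 2.3.3. The background limit, scaling and centring were checked on simulated data with a single spot per gene. The choice of probe, the averaging of spots and the flag filter were not checked there.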

Additional observations from a re-analysis of the deposited data

Results flagged for a closer look

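Some probes carry no gene symbol but are described by the array as proteasome proteins, and they entered no comparison. A probe described as the proteasome inhibitor PI31 subunit read 278 at low against 261 at high feed efficiency, above the background limit of 10.9 on both arrays, with a relative difference of -0.14. A probe described as proteasome activator subunit 1 read 322 against 290, also above background on both arrays, with -0.08. With 1 array per group, samples could not be set against others of their group.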

How the results depend on the processing

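The member values, group medians and fold counts were recomputed under 14 alternatives, 12 of them centred on all genes, and the members' fold counts also at 2-fold. The medians of the related and marker lists were recomputed under the 12 centred ones. Brightness classes, probe agreement, marker sums, neighbouring genes and values of second probes were given under the reported setting alone. No paired analysis was possible because each group has 1 array. PSMB6 was the 1 member at least 1.5-fold lower; the count was 0 with normexp, the authors' table, the mean over probes, only spots flagged good, spike-in scaling and the 2-fold threshold. The median of the 5 inducible genes was -0.14 with normexp and -0.13 in the authors' table, in place of -0.24. Spike-in scaling without centring gave 0.077 for the inducible, 0.25 for the constitutive and 0.33 for the other subunits, with 1 member at least 1.5-fold higher; it left the inducible minus constitutive median at -0.17. Over all genes it gave 72 at least 1.5-fold lower and 1811 higher, in place of 271 and 340; normexp gave 43 and 65, the pixel median without background subtraction 81 and 89, the filter at an intensity of 50 93 and 114, no filter beyond a positive intensity 1658 and 1815, and only spots flagged good 125 and 183. Of 428 values of members under centred alternatives, 35 moved by the spot SD or more; the cause was not tested. Dim members such as PSMD12 are limited by their signal over background.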

Other observations

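The gene order of the ARS-UCD2.0 assembly places some of these genes close together. TAP1, the peptide transporter gene that lies between PSMB8 and PSMB9, had a relative difference of 0.19, while PSMB8 and PSMB9 had -0.09 and -0.29. The other near neighbours of this pair lay below 0, as the pair did, though TAP2 by less than the spot SD. On the PSMB8 side BOLA-DOB had -0.37, TAP2 -0.01 and LOC618733 -0.17. On the PSMB9 side H2B had -0.21, BOLA-DMB -0.36 and BOLA-DMA -0.33. PSME1 and PSME2 have EMC9 between them, which had -1.15, against -0.09 and -0.24 for the pair itself. The EMC9 value comes from the reported setting alone, and its intensity was not looked at. PSMB11 is the direct neighbour of PSMB5, with -0.58 and -0.07.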
